A study of Mus musculus with 6 samples.

Results

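The 9 genes described here encode components, receptors and a regulator of the complement system. They are C1qa, C1qb and C1qc (the chains of C1q), C4a, C4b, C3, the anaphylatoxin receptor genes C3ar1 and C5ar1, and the inhibitor gene Serping1. They were taken by symbol from a table of 43346 genes, where each symbol had 1 row, and all 9 were among the 16934 genes abundant enough to test. The table holds cerebellar RNA of 6 mice aged 15 months, with 1 library per mouse. There were 3 wild-type mice (WT, Tmem106b+/+) and 3 mice homozygous for a knockout allele (KO, Tmem106b-/-), and each genotype had 1 female (replicate 1) and 2 males (replicates 2 and 3). No treatment is labelled, and the sources used here do not give the strain, the kind of knockout allele or whether the mice were littermates. Tmem106b encodes a lysosomal membrane protein, and the title of the study concerns the death of Purkinje cells after its loss.

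Complement is a cascade of proteins that tag material for uptake by phagocytes. C1q binds the target and starts the classical branch, the proteases of the C1 complex then cleave C4 and C2, and the resulting enzyme cleaves C3, whose fragments stay on the target or act on receptors such as C3aR. In brain, C1q is made mainly by microglia, C4 by astrocytes and oligodendrocytes among others, and the pathway is known for its part in the removal of synapses.

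The libraries held 25245778 to 31135185 counts, and RNA integrity numbers were 10 in all. Tmem106b was at 230 to 267 CPM (read counts scaled to library size by the TMM method) in WT and 62.7 to 69.7 CPM in KO (log2 fold change -1.88, SE 0.08, edgeR adjusted p = 1.37e-04). Cerebellar markers were abundant (5 granule cell genes summed to 4392 to 5066 CPM), 4 forebrain markers summed to only 7.51 to 9.41 CPM, and 4 of 6 Purkinje cell markers fell in KO (edgeR). In 2 respects libraries stood apart. The KO female library was low over genes rich in G and C: the tenth of tested genes with the highest GC content (57.8% or more) had a median log2 deviation of -0.35 there, against -0.01 to 0.18 in the other 5. Choroid plexus markers summed to 82.6 CPM in the WT female and 1616 to 5045 CPM elsewhere. The labels describe 6 separate mice, and no batch is given.

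Of the 9 genes, 7 had all 3 KO libraries above all 3 WT libraries, a pattern shown by 7.77% of all tested genes. These were C1qa, C1qb, C1qc, C3, C3ar1, C4a and C4b, with log2 fold changes (KO over WT) of 0.74 to 1.16, that is 1.68 to 2.24-fold. C5ar1 and Serping1 overlapped between genotypes. The median log2 fold change was 0.79 over the 9 genes and 0.00 over all genes tested. In edgeR's quasi-likelihood test with sex as a covariate, 0 of the 9 passed a Benjamini-Hochberg adjusted p of 0.05 over all genes, where 0.136% of all genes were called higher. At an unadjusted p under 0.05 the same 7 were higher, against 4.71% of all genes. DESeq2 called 6 of the 9 higher (all genes 0.537%), and edgeR with offsets that take out trends of GC content and length also called 6 (all genes 0.626%). In both fits the 6 were C1qa, C1qb, C1qc, C3, C3ar1 and C4b. The calls therefore depended on the fit, while the direction of these 7 genes held in every fit that was run. The 9 genes were chosen with earlier results of these data known, so the shares of all genes beside them are a description. In tissue RNA, a change in the number of cells of a type and a change of RNA per cell cannot be told apart.

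**Figure D1:**
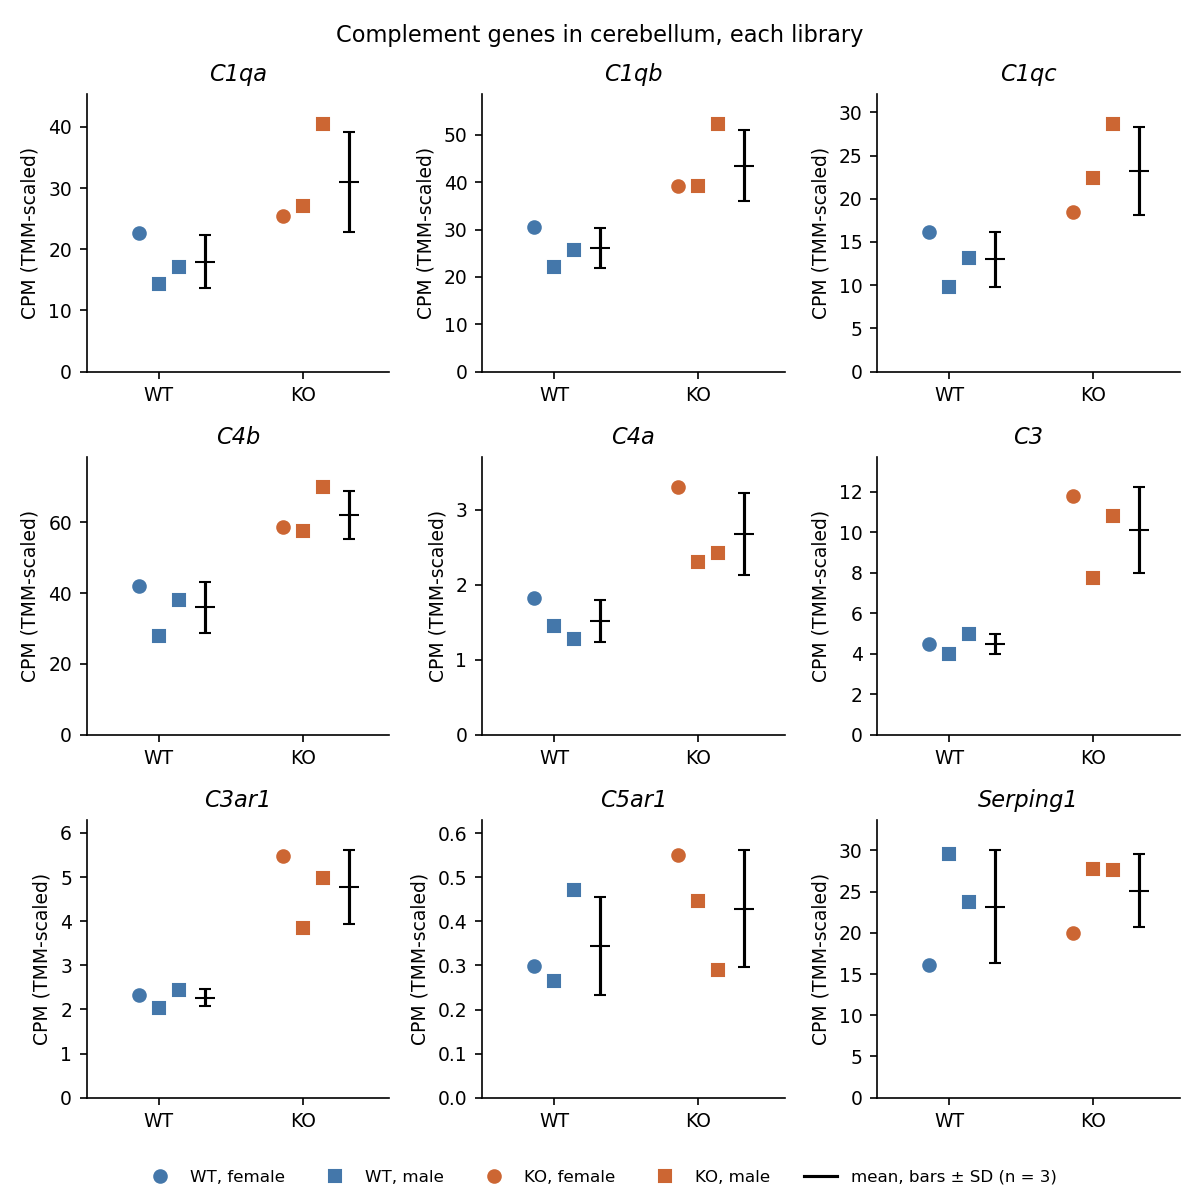
TMM-scaled CPM (y axis, linear from 0, own scale per gene) of the 9 complement genes in each of 3 WT and 3 KO libraries, with circles for females, squares for males and black marks for the mean ± SD (n = 3). In 7 panels all KO points lie above all WT points, for example C3 at 7.73 to 11.8 CPM against 3.99 to 4.99 CPM, while C5ar1 and Serping1 overlap.

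C1qa, C1qb and C1qc encode the 3 chains that assemble into C1q. The genes lie side by side on the minus strand of chromosome 4 of mm10, at 136895917 to 136898803, 136880129 to 136886187 and 136889804 to 136893065, and no other gene model of the file overlaps them. C1qb (ENSMUSG00000036905) was at 30.5 CPM in the WT female and 22.2 and 25.6 CPM in the WT males, and at 39.1 CPM in the KO female and 39.3 and 52.2 CPM in the KO males. The lowest KO library was thus above the highest WT library, the WT female. Means were 26.1 ± 4.17 and 43.5 ± 7.51 CPM (SD, n = 3 each; log2 fold change 0.74, SE 0.16, edgeR adjusted p = 0.144).

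C1qa (ENSMUSG00000036887) was at 22.7, 14.3 and 17.1 CPM in WT replicates 1 to 3 and at 25.5, 27.0 and 40.4 CPM in KO replicates 1 to 3. The gap between the genotypes was narrow in the females, whose 2 values lay nearest to each other, and KO replicate 3 stood highest. The log2 fold change was 0.79 (SE 0.22, edgeR adjusted p = 0.294). C1qc (ENSMUSG00000036896) was at 16.1, 9.75 and 13.1 CPM in WT and 18.5, 22.4 and 28.6 CPM in KO, in the same order of libraries (0.84, SE 0.22, edgeR adjusted p = 0.247). Across the 6 libraries the log2 levels of the 3 genes had Pearson correlations of 0.980 to 0.987 with each other, a description over libraries that share depth and composition.

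The difference in C1q RNA was larger in the males. KO over WT was 2.15 in males and 1.12 in the females for C1qa, 1.91 and 1.28 for C1qb, and 2.23 and 1.15 for C1qc. With the sex by genotype term in edgeR, whose spread comes from the males, the male minus female difference in log2 fold change was 0.93 (SE 0.34) for C1qa, 0.58 (SE 0.25) for C1qb and 0.95 (SE 0.30) for C1qc. Their unadjusted p-values of 0.0118 to 0.0464 fell under 0.05, as did those of 18.8% of all genes tested. None passed after adjustment (edgeR adjusted p = 0.145 to 0.255; 0% of all genes passed). In DESeq2, where 538 genes passed this test, the adjusted p-values were 0.0847 for C1qa, 0.242 for C1qb and 0.0942 for C1qc. GC content is 59.5% for C1qa, in the top 10% of genes, where the KO female library was low, and 57.4% for C1qb and 57.5% for C1qc, just under its bound. With the GC and length offsets the interaction terms were 0.43 (SE 0.24), 0.18 (SE 0.18) and 0.58 (SE 0.25), an alternative chosen after seeing the data (edgeR adjusted p = 0.561 to 0.838, with C1qc alone under 0.05 unadjusted, at 0.0421). The other 6 genes had interaction terms of -0.86 to 0.47, none with an unadjusted p under 0.05.

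In fits without either female or without both, C1qb and C1qc passed. In males only, where edgeR called 0.235% of all genes higher, C1qb was at 0.93 (SE 0.14, edgeR adjusted p = 0.0325) and C1qc at 1.15 (SE 0.17, 0.0306), while C1qa, at 1.09 (SE 0.20), was not past the threshold (0.1). These fits rest on the same 4 males. Without WT replicate 2 the 3 genes were at 0.62 to 0.63, and without KO replicate 3 at 0.54 to 0.67, where C1qb passed (edgeR adjusted p = 0.0329).

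The promoter of C1qb is shown because C1q genes are read mainly in microglia and macrophages, whose factor PU.1 binds motifs with the letters GAGGAA. It is RefSeq's sequence (build GRCm38.p6, minus strand, chromosome 4 at 136886211 to 136886450, from 250 to 11 bases before the gene start), with the motif match in capitals. RefSeq promoters were found for 5 of the 9 genes.
C1qb: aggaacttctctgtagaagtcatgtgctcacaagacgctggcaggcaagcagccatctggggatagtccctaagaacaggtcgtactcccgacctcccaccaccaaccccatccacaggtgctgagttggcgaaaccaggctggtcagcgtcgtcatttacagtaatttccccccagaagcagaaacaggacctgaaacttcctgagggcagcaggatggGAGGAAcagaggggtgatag
The GAGGAA motif, searched on both strands from 250 bases before to 50 after each start, had 1 match in C1qb, 30 bases before the start, and 1 in C1qc, 193 bases before it. It had 0 in C3, C3ar1 and C5ar1, and 28.3% of all 32851 promoters held it. No match says only that these letters are not in this window. The single tested neighbour within 100 kb of the C1q genes, Epha8, was at a log2 fold change of -0.33 (SE 0.20, edgeR adjusted p = 0.709).

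C4b (ENSMUSG00000073418) encodes complement C4, which is cleaved after C1q binds and is deposited on the target. It lies on chromosome 17 at 34728380 to 34743882 (mm10, minus strand) in the MHC class III region. Its level was 41.9, 27.9 and 38.1 CPM in WT replicates 1 to 3 and 58.7, 57.6 and 69.9 CPM in KO replicates 1 to 3. All KO libraries were above all WT libraries, and KO replicate 3 was again the highest. Means were 36.0 ± 7.24 and 62.0 ± 6.81 CPM (SD, n = 3 each; log2 fold change 0.79, SE 0.15, edgeR adjusted p = 0.112).

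C4a (ENSMUSG00000015451), a near copy of C4b at 34809092 to 34823464 of the same chromosome, is labelled a processed transcript in the file. It had 38 to 55 counts in WT libraries and 67 to 84 in KO libraries. On the CPM scale these were 1.83, 1.45 and 1.28 in WT and 3.30, 2.30 and 2.42 in KO, so the groups did not overlap and the KO female was highest (log2 fold change 0.81, SE 0.19, edgeR adjusted p = 0.172). C4a took 3.25% to 4.93% of the counts of the pair in WT and 3.35% to 5.33% in KO, ranges that overlap.

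The 2 transcripts were compared because reads of one can be counted for the other. The longest GENCODE transcripts, C4b-201 (5379 bases) and C4a-207 (5371 bases), were identical at 96.1% of 5367 aligned bases. Of the 50-base windows of C4a-207, 35.2% also occur in C4b-201, and 16.5% of its 100-base windows do. So most windows of these lengths can tell the copies apart, and some cannot. The coding 90-base window with the most differences within 1 exon lies in exon 21 of 41 of C4b, at 34735430 to 34735519 of chromosome 17, with the 14 differing bases in capitals.
C4b: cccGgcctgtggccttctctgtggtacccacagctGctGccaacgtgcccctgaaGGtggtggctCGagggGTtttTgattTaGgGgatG
C4a: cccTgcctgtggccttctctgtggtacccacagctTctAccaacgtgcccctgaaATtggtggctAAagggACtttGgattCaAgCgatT
The sources used here do not say how reads that fit both copies were counted. With both rows summed, the log2 fold change was 0.80 (edgeR adjusted p = 0.0951). Of the 24 other genes within 100 kb of the pair, 13 were tested and 0 passed, at an unadjusted p under 0.05 also 0, with log2 fold changes of -0.23 to 0.59 and a median of -0.03. The highest of these was Cfb and the third was C2, both complement genes described further on.

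C3 (ENSMUSG00000024164) encodes the protein on which all branches of the cascade converge. It lies on chromosome 17 at 57203970 to 57228136 and overlaps a microRNA model with 0 counts. Its level was 4.49, 3.99 and 4.99 CPM in WT replicates 1 to 3 and 11.8, 7.73 and 10.8 CPM in KO replicates 1 to 3. The lowest KO library was well above the highest WT library, and among KO mice the female was highest. Means were 4.49 ± 0.501 and 10.1 ± 2.11 CPM (SD, n = 3 each), with a log2 fold change of 1.16 (SE 0.18), the largest of the 9 genes. Its edgeR adjusted p of 0.0504 lay at the threshold, and it passed in 9 of 15 alternative fits (adjusted p = 1.52e-05 to 0.246 in edgeR, DESeq2 and limma-voom). KO over WT was 2.62 in the females and 2.07 in the males.

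The promoter of C3 is printed because C3 is an acute-phase gene known to respond to C/EBP factors. It is RefSeq's sequence (GRCm38.p6, minus strand, chromosome 17 at 57228147 to 57228386, from 250 to 11 bases before the start), with matches to the C/EBP type motif TTNNGNAA, where N is any base, in capitals.
C3: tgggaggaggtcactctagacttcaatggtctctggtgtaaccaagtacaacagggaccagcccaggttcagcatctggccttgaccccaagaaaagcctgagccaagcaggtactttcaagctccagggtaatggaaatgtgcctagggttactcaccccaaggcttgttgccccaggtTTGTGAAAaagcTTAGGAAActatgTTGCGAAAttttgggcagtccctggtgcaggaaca
The 3 matches begin 70, 58 and 45 bases before the start, and 40.7% of all promoters of this length hold at least 1. C1qc and C5ar1 had 1 match each, C1qb and C3ar1 had 0. A match is a description of the letters and not a measured binding site. A STAT type motif (TTCNNNGAA, 8.3% of promoters) had no match in the 5 promoters, and GAAANNGAA, of the interferon-stimulated response element type (8.56% of promoters), had 1, in C5ar1.

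C3ar1 (ENSMUSG00000040552) encodes the receptor for C3a, a fragment released when C3 is cleaved, and is expressed by microglia and other myeloid cells. It lies on chromosome 6 at 122847138 to 122856161, which is 110 Mb from Tmem106b on the same chromosome. It was at 2.33, 2.04 and 2.43 CPM in WT and 5.47, 3.85 and 4.99 CPM in KO, with 62 to 72 counts behind the WT values and 112 to 139 behind the KO values. As for C3, the WT libraries lay close together and the KO libraries apart, with the KO female highest and KO replicate 2 lowest. The log2 fold change was 1.07 (SE 0.18, edgeR adjusted p = 0.0714), and KO over WT was 2.35 in the females and 1.98 in the males. The receptor and C3 had a Pearson correlation of 0.999 in log2 level over the 6 libraries.

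C5ar1 (ENSMUSG00000049130, chromosome 7 at 16246743 to 16259540) encodes the receptor for C5a. It had 8 to 14 counts in WT and the same range in KO, 0.264 to 0.472 CPM against 0.290 to 0.551 CPM. A difference was not detectable at this depth (log2 fold change 0.30, SE 0.41, edgeR adjusted p = 0.865).

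Serping1 (ENSMUSG00000023224, chromosome 2 at 84765387 to 84775444) encodes the C1 inhibitor, which inactivates the proteases C1r and C1s. Its level was 16.1, 29.6 and 23.8 CPM in WT replicates 1 to 3 and 20.0, 27.7 and 27.6 CPM in KO replicates 1 to 3. The female was the lowest library of each genotype, and the genotypes overlapped (log2 fold change 0.13, SE 0.11, edgeR adjusted p = 0.788). Meningeal fibroblast markers were also lowest in the females, at a summed 99.7, 288 and 229 CPM in WT and 170, 290 and 198 CPM in KO, and their part in the level of Serping1 was not tested.

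**Figure D2:**
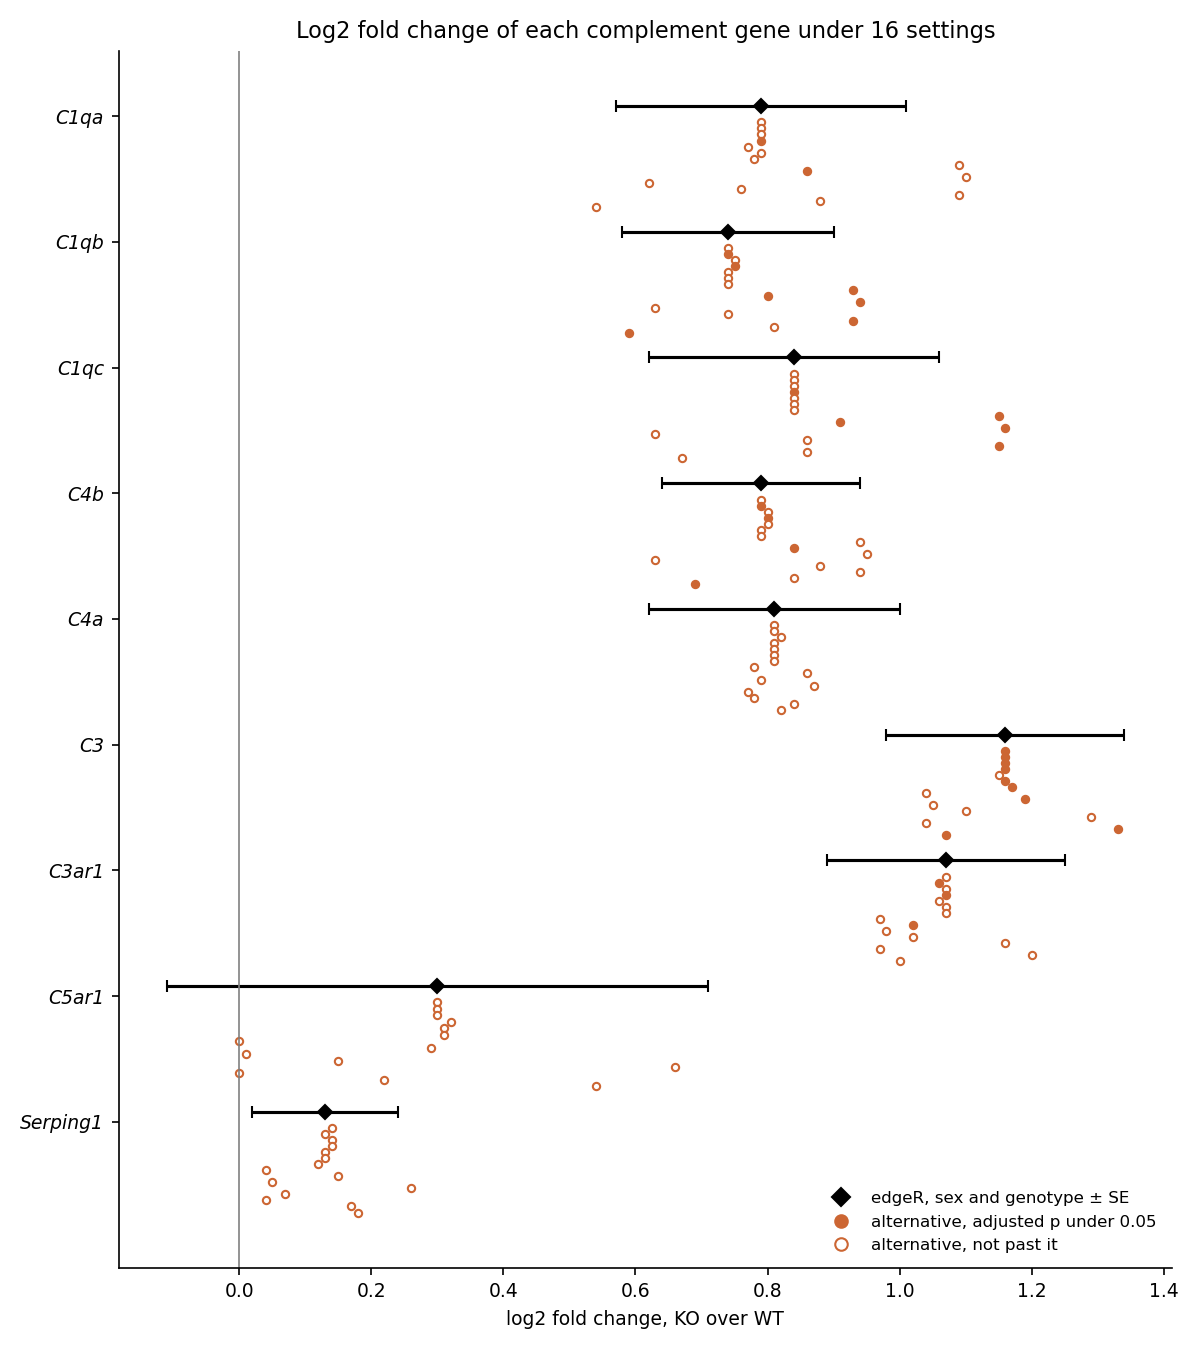
Log2 fold change, KO over WT (x axis), of each complement gene (rows) in edgeR with the sex term (black diamonds ± SE) and in 15 alternative fits (circles, filled where the adjusted p was under 0.05). C3 and C3ar1 lie at 0.97 to 1.33 in all fits, the C1q and C4 genes at 0.54 to 1.16, and C5ar1 and Serping1 have no filled circle.

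Per kilobase of gene model, which allows levels of different genes to be set side by side, C1qb was highest in WT at 24.0 ± 3.83 CPM per kb, followed by C1qa (17.3 ± 4.11), Serping1 (9.97 ± 2.93), C1qc (6.73 ± 1.64), C4b (6.32 ± 1.27), C3 (0.873 ± 0.0974), C3ar1 (0.526 ± 0.0464), C4a (0.245 ± 0.0453) and C5ar1 (0.134 ± 0.0433; SD, n = 3 each). C1qb and C1qa overlapped in range, as did Serping1 and C1qc, and C1qc and C4b. The remaining neighbours in this order did not overlap in WT or in KO. In KO the levels were 40.0 ± 6.90 for C1qb, 29.8 ± 7.88 for C1qa, 12 ± 2.65 for C1qc, 10.9 ± 1.20 for C4b, 10.8 ± 1.91 for Serping1 and 1.96 ± 0.411 for C3, so C1qc and C4b stood at the level of Serping1 there.

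The 9 genes did not share 1 order of the KO libraries. KO replicate 3 was highest for C1qa, C1qb, C1qc and C4b, the KO female for C3, C3ar1, C4a and C5ar1, and KO replicate 2 for Serping1, at 27.7 against 27.6 CPM in KO replicate 3. GC content is 55.3% for C4b, 53.3% for C3, 43.0% for C3ar1 and 55.1% for C4a. Over the most GC-rich genes the KO female was lowest (-0.35) and KO replicate 3 highest (0.18). The part of the libraries' GC trends in these orders was not tested.

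Microglia markers, summed, were also higher in every KO library than in any WT library. The 10 markers listed (among them Cx3cr1, P2ry12, Tmem119, Csf1r, Siglech, Sall1, Gpr34, Aif1 and Trem2) summed to 199, 172 and 202 CPM in WT replicates 1 to 3 and to 249, 235 and 255 CPM in KO replicates 1 to 3, and none was at 0. Trem2, a lipid-sensing receptor gene, was at a log2 fold change of 0.94 (SE 0.19, edgeR adjusted p = 0.117), and P2ry12, a receptor of resting microglia, at 0.08 (SE 0.13, 0.884). Border macrophage markers (7 genes) summed to 5.19 to 7.12 CPM in WT and 7.09 to 9.01 CPM in KO, with 0 of 7 past the threshold and none at 0. Blood monocyte and neutrophil markers (7 genes, none at 0) summed to 3.49, 1.98 and 2.46 CPM in WT replicates 1 to 3. In KO replicates 1 to 3 they summed to 6.29, 3.36 and 3.15 CPM, highest in the female, as were C3 and C3ar1. By edgeR 0 of the 5 tested passed. At an unadjusted p under 0.05, 2 of them were higher (4.71% of all genes), and their median log2 fold change was 0.93. Lymphocyte markers (6 genes, none at 0) summed to 0.725 to 1.01 CPM in WT and 0.511 to 0.977 CPM in KO. Red blood cell markers (5 genes, none at 0) summed to 88.5, 71.8 and 72.7 CPM in WT replicates 1 to 3 and to 110, 77.2 and 157 CPM in KO replicates 1 to 3, highest in the library that was also highest for the C1q genes and C4b. By edgeR 0 of these 5 passed and 3 were higher at an unadjusted p under 0.05, with a median log2 fold change of 0.56, while DESeq2 and the fit with offsets called Hba-a2, a globin gene with a near-identical copy. The part of blood in the complement values was not tested. Of 8 astrocyte and Bergmann glia markers 1 passed in edgeR, Gfap, an intermediate filament gene of reactive astrocytes. Its means were 195 ± 43.5 in WT and 358 ± 23.4 in KO (CPM with SD, n = 3 each). Its edgeR adjusted p was 0.0214, but 0.154 without WT replicate 2 and 0.223 without WT replicate 3. The sum of the 8 overlapped between genotypes (5811 to 6194 and 5616 to 6113 CPM). Their median log2 fold change was -0.05, with 3 of 8 above 0. Gja1 had all KO libraries above all WT libraries (0.29, SE 0.07, edgeR adjusted p = 0.203) and passed with the offsets (edgeR adjusted p = 0.0407). Slc1a3 had all KO libraries below all WT libraries (-0.24, SE 0.08, edgeR adjusted p = 0.41).

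Set against the summed microglia markers of the same library, the C1q genes and the others differed. The sum of C1qa, C1qb and C1qc was 0.348, 0.268 and 0.277 times the marker sum in WT replicates 1 to 3 and 0.334, 0.377 and 0.475 times in KO replicates 1 to 3, so the genotypes overlapped, with the KO female below the WT female. This overlap rests on the female pair, and the KO males were above all WT libraries. The KO female library was low over GC-rich genes, and the part of that trend in its C1q ratio was not tested. C3 was at 0.0225 to 0.0247 times the marker sum in WT and 0.0329 to 0.0473 in KO. C3ar1 was at 0.0117 to 0.0120 and 0.0164 to 0.0220, and C4b at 0.162 to 0.211 and 0.236 to 0.274. These 3 genes did not overlap between genotypes on this scale. The ratios were chosen with the values known and are a description with no test.

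**Figure D3:**
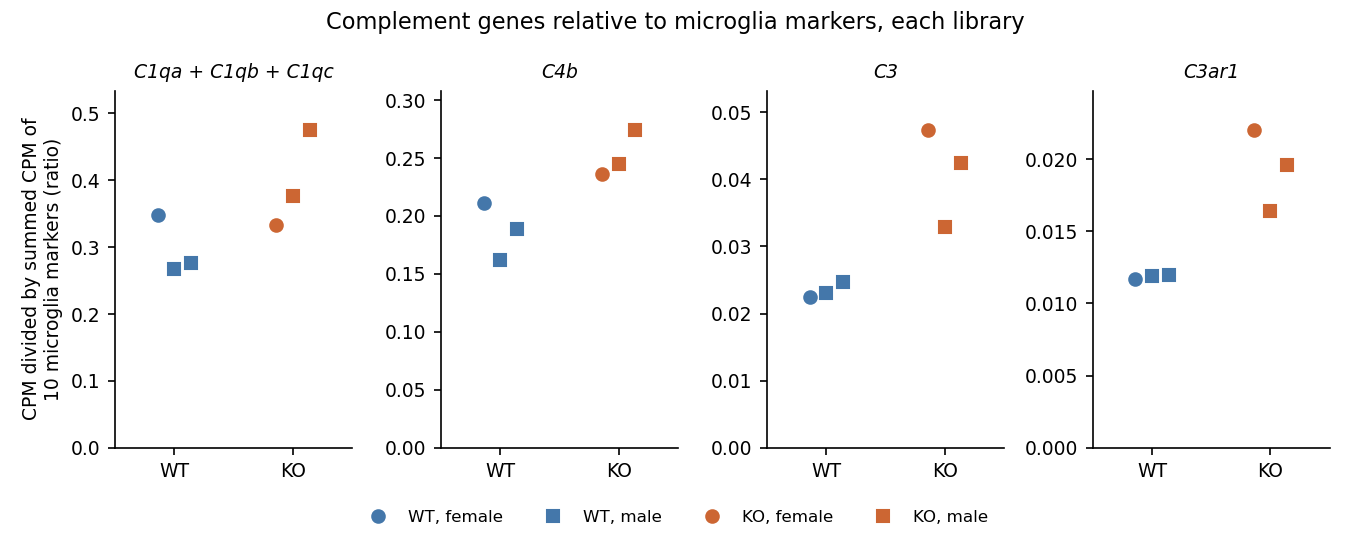
CPM of C1qa, C1qb and C1qc together, C4b, C3 and C3ar1, each divided by the summed CPM of 10 microglia markers in the same library (y axis, ratio, linear from 0), for 3 WT and 3 KO libraries. The C1q ratio overlaps (0.268 to 0.348 in WT, 0.334 to 0.475 in KO), and those of C4b, C3 and C3ar1 do not.

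Some genes followed the 9 closely over the 6 libraries (Pearson r of log2 CPM among about 14780 genes averaging 1 CPM or more, a description in which high values are common with so few libraries). Nearest to C4b were the microglial receptor genes Trem2 (r = 0.998) and Cx3cr1 (0.985), with Serac1 (0.988), Apbb1ip (0.986) and Serpine2 (0.985). Nearest to C3 were C3ar1 (0.999), Cyp7b1 (0.996), Arhgap25 (0.988), Ms4a6c (0.984) and Fam206a (0.983). The mean of the C1q genes was followed by Toporsos (0.993), Pik3ip1 (0.989), Serpine2 (0.988), Txlna (0.987) and Prodh (0.986). Serping1 had other companions, Col4a3 (0.998) and then P2rx6, Slc5a5, Wtip and H2-Aa (0.994 each).

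Of 48 further complement genes, all in the file, 31 were tested and 0 passed in edgeR in either direction, with 7 higher and 1 lower at an unadjusted p under 0.05. Over all genes tested 4.71% were higher and 4.25% lower at that p. DESeq2 called 2 of the 31 higher, where 0.537% of all genes were, and limma-voom called 0. Their median log2 fold change was 0.20. Among the other activation components 9 of 16 were tested, all 9 above 0 with a median of 0.57. The largest values were those of low genes, Colec11 (0.86, SE 0.36, 3 to 19 counts per library) and Masp2 (0.71, SE 0.37, 6 to 18 counts). C1rl, also low at 17 to 30 counts, was at 0.06 (SE 0.28). Masp1, at 10.6 to 13.1 CPM, was at 0.10 (SE 0.11). The protease genes of the C1 complex, C1s1 and C1ra, overlapped between genotypes. C1s1 averaged 1.15 ± 0.514 CPM in WT and 1.76 ± 0.200 in KO (SD, n = 3 each), at a log2 fold change of 0.65 (SE 0.27, edgeR adjusted p = 0.521), and C1ra was at 0.57 (SE 0.24, 0.533). C2, at 0.34 (SE 0.20), and Cfb, the alternative branch's counterpart of C2, at 0.59 (SE 0.46, 9 to 26 counts per library), did not pass either (edgeR adjusted p = 0.685 and 0.772). Cfp, which encodes properdin, had means of 13 ± 2.41 and 16 ± 0.773 CPM in WT and KO (SD, n = 3 each), a log2 fold change of 0.31 (SE 0.15, edgeR adjusted p = 0.599). Cfd, Mbl1 and Colec10 had 0 counts in every library.

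Of the other receptors 5 of 7 were tested, with a median of 0.78. That median is the value of C5ar2 (SE 0.41, edgeR adjusted p = 0.657). C5ar2 had only 6 to 18 counts per library and overlapped between genotypes. Itgax and Itgb2 encode the chains of complement receptor 4, a receptor for fragments of C3, and Itgb2 pairs with Itgam in complement receptor 3. Itgax was at 1.90, 0.395 and 0.404 CPM in WT replicates 1 to 3 and 3.70, 3.09 and 4.49 CPM in KO replicates 1 to 3. Its highest WT library, the female, lay below all KO libraries (log2 fold change 2.26, SE 0.45, edgeR adjusted p = 0.124). Itgb2 was at 5.22, 2.93 and 3.67 CPM in WT and 6.69, 6.83 and 8.72 CPM in KO (0.94, SE 0.22, edgeR adjusted p = 0.184), again without overlap. DESeq2 called both (adjusted p = 4.05e-05 and 0.0149), and edgeR with GC and length offsets called Itgb2 (0.0347). Itgam was at 0.35 (SE 0.11, edgeR adjusted p = 0.355), with all KO libraries above all WT libraries, and Cd93, once described as a C1q receptor gene, was at 0.03 (SE 0.14, 0.966).

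The terminal pathway, which forms the membrane attack complex, was hardly detected: of 7 genes, 2 were tested, Hc and C8g. Hc, the gene of C5, had means of 0.799 ± 0.182 and 0.447 ± 0.130 CPM in WT and KO (SD, n = 3 each), a log2 fold change of -0.82 (SE 0.33, unadjusted p = 0.0358, edgeR adjusted p = 0.51), with all KO libraries below all WT libraries, and C8g was at -0.05 (SE 0.26, 0.966). Other regulators had a median of 0.09 over 15 tested of 18, with 0 called. Csmd1, a complement-inhibiting membrane protein of neurons, was at 0.31 (SE 0.13, edgeR adjusted p = 0.52) and Cd46, a cofactor for the cleavage of C3b, at 0.38 (SE 0.29, 0.763). Clusterin, Clu, the most abundant of them, had means of 561 ± 3.34 and 617 ± 81.8 CPM in WT and KO (SD, n = 3 each; edgeR adjusted p = 0.709).

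Genes that share the C1q domain but act at synapses were listed for contrast, since cerebellins and C1q-like proteins organise the contacts onto Purkinje cells. Of 8, 6 were tested, with a median of -0.20 and 0 past the threshold in edgeR, DESeq2 or with the offsets. C1ql1, which is made by climbing fibre neurons, had means of 1.58 ± 0.271 and 1.02 ± 0.273 CPM in WT and KO (SD, n = 3 each), a log2 fold change of -0.63 (SE 0.27, edgeR adjusted p = 0.542), and Cbln4 was at -0.36 (SE 0.29, 0.771). Cbln1, the cerebellin of granule cells, was at 654 ± 26.2 and 645 ± 82.1 CPM (SD, n = 3 each; edgeR adjusted p = 0.942).

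**Figure D4:**
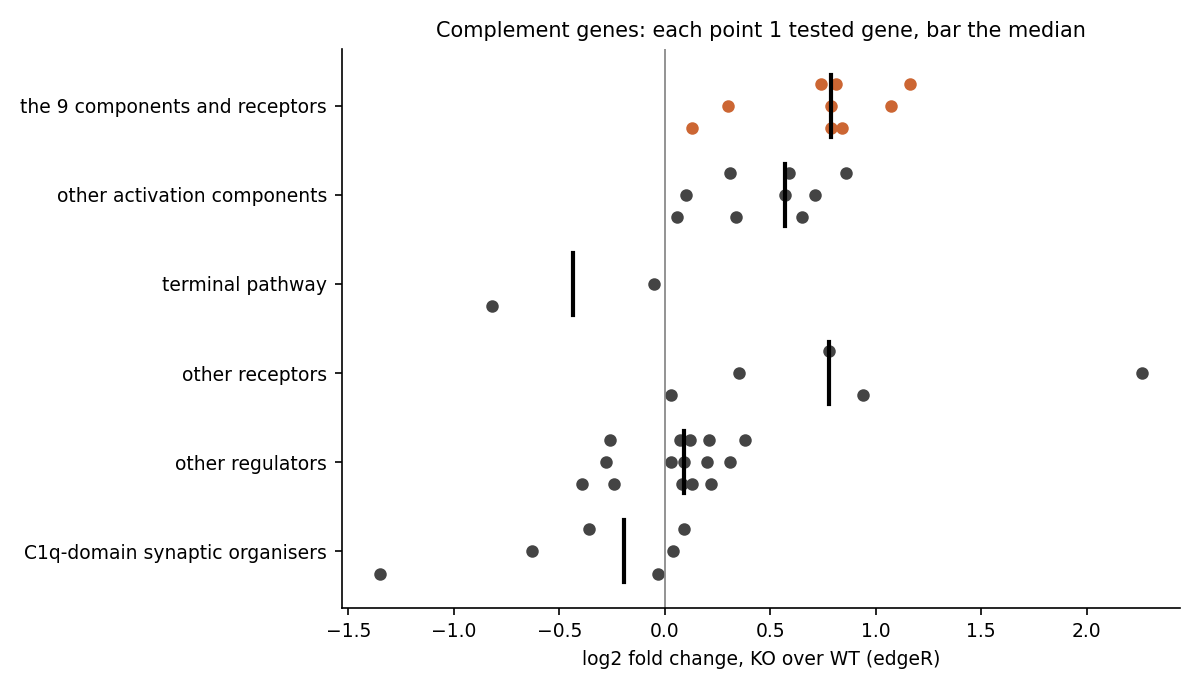
Log2 fold change, KO over WT, in edgeR (x axis) of each tested gene of the 9 components and receptors (orange) and of 5 further lists (grey), with a black bar at each list's median. The medians are 0.79 for the 9 genes, 0.57 for other activation components and 0.78 for the 5 other receptors (the value of C5ar2, at 6 to 18 counts). They are 0.09 for other regulators, -0.44 for the 2 terminal pathway genes and -0.20 for the C1q-domain synaptic genes.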

How the data were processed

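The deposited data are raw read counts per gene in 1 table by the authors, in 6 library columns matched to samples by title, with mm10 coordinates and gene model lengths per the file headers. STAR was the aligner and mm10 the build, per the submitters' processing notes. The sources used here do not give the counting tool, its strand setting or the annotation release, so antisense and overlapping genes cannot be told apart. Library totals were 25245778 to 31135185, and low counts limit the precision of low genes.

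The count model was edgeR 4.0.16 in R 4.3.3, with filterByExpr (minimum count 10, minimum total 15), TMM scaling, terms for sex and genotype (residual degrees of freedom 3) and the quasi-likelihood F test in its robust legacy version, two-sided. Adjustment was by Benjamini-Hochberg over 16934 genes at a threshold of 0.05. An SE is the size of the log2 fold change over the root of F. Log2 CPM values used a prior count of 2. Alternatives were RLE size factors, other filters, DESeq2 1.42.0, limma-voom (limma 3.58.1), the newer quasi-likelihood version, males only, no sex term, leaving out each library, a threshold of 0.10, C4a and C4b summed, and loess offsets (span 0.5) for length and for GC content of the longest GENCODE transcript, known for 99% of tested genes. The edgeR tests of genotype and of its interaction with sex were tested on simulated counts. No library was a copy of another of its genotype (chi-square per degree of freedom 6.96 to 28.8). Replicate numbers follow the order of deposit.

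The 9 genes and the lists were chosen with earlier results of these data known. Named genes were the 9 and, in each complement list, those past the threshold and the 2 with the largest fold change at a mean of 1 CPM or more. Chosen after their values were seen were C2, Cfb, Cfp, Masp1, Masp2, Colec11, C1rl, C5ar2, Itgam, Cd93, Hc, C8g, Clu and Cbln1, and the marker genes Trem2, P2ry12, Gfap, Gja1 and Slc1a3. Some genes of the lists are not reported here. A planned comparison of proteins was not made.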

Additional observations from a re-analysis of the deposited data

How the results depend on the processing

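Of the 9 genes, 0 passed in the main test (with 23 genes higher in the whole table) and in limma-voom (21 higher). The count was 1, C3 in each, with RLE size factors (31 higher), a mean of at least 1 CPM (31), the newer quasi-likelihood version (25) and no sex term (28). It was 2 at a threshold of 0.10 (C3 and C3ar1), 2 in males only (40 higher), 4 with no filter (C1qb, C3, C3ar1 and C4b, with 78 higher of 26510 genes) and 6 in DESeq2 (91 higher) and with GC and length offsets (105 higher). Leaving out 1 library gave 0 to 3: 0 without WT replicate 2 or 3 (each with 0 genes higher and 1 lower in the whole table), 1 without KO replicate 2 (C3, 11 higher), 2 without WT replicate 1 (40 higher) or KO replicate 1 (41 higher), C1qb and C1qc in both, and 3 without KO replicate 3 (C1qb, C3 and C4b, 67 higher). The median log2 fold change of the 9 ran from 0.63 (without WT replicate 2) to 0.95 (without WT replicate 1). C4a, C5ar1 and Serping1 passed in none of these fits. C4a and C4b summed passed with no filter (0.79), in DESeq2 (0.80) and with the offsets (0.84). With 1 library left out the sum was at 0.64 to 0.94, and it passed only without KO replicate 3 (0.69). Of the 48 further complement genes, 1 of 44 tested passed with no filter (Itgb2), 2 of 31 in DESeq2 and 2 of 30 in males only. With the offsets 1 of 31 passed, and with 1 library left out 0 to 2 of 31 or 32 (Itgax, Itgb2 or both). The causes were not tested. No paired analysis was possible because the labels give no replicate numbers, and of the unexplained codes in the library titles the genotypes share only 1. Depth limits C5ar1, with 8 to 14 counts per library, most.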
